A study of Mus musculus with 10 samples.

Results

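Expression of 39 cell cycle and DNA replication genes was examined in mouse microglia of 3 groups, labelled WT, APP/PS1 and APP/PS1+N-AS. The genes were taken as a list of symbols, and all 39 were found among the 24421 symbols of the count files. All 39 also passed the filter on low counts, which left 18727 genes for testing. The cells came from the cortex at 9 months of age, and total RNA was sequenced in 3 WT, 4 APP/PS1 and 3 APP/PS1+N-AS libraries, the last from APP/PS1 mice after N-AS injections. N-AS is N-acetyl sphingosine, an acetylated lipid given subcutaneously at 30 mg/kg every day for 8 weeks from 7 months of age. APP/PS1 mice are a transgenic model of amyloid plaque formation that carries mutant human amyloid precursor protein (APP) and mutant presenilin-1 (PS1). The APP/PS1 and APP/PS1+N-AS groups thus share the model's transgenes, and WT mice have none. The labels do not say whether APP/PS1 mice received vehicle, whereas the study describes this group as vehicle-treated. Each library pooled a pair of mice, and microglia were separated on a density gradient without sorting.

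A dividing cell first licenses its replication origins by loading the MCM helicase, then copies its DNA in S phase and separates the copies in mitosis. The genes for these steps are transcribed in waves, with many replication genes under E2F factors and many mitotic genes under factors that act through CHR and CCAAT elements. Microglia are long-lived and divide slowly in the healthy adult brain, and they gather and divide around amyloid plaques in mouse models.

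Before the results, several properties of the libraries bear on them. Total counts lay between 8805804 and 19432075 per library. The methods state that male mice were used, and Xist, the RNA of the inactive X chromosome, had 33 to 37 reads in the WT libraries. Yet APP/PS1 libraries held 5253 to 11188 Xist reads, and APP/PS1+N-AS replicates 1 to 3 held 7024, 8848 and 29. The Y-linked gene Ddx3y had only 7 and 10 reads in APP/PS1 replicates 3 and 4 and between 203 and 1431 in the other 8 libraries. Genotype and sex therefore cannot be told apart in the comparison with WT. APP/PS1+N-AS replicate 3, with 29 Xist and 993 Ddx3y reads, also differed in these genes from every APP/PS1 library. Treatment and sex are thus partly mixed between APP/PS1+N-AS and APP/PS1, and the part of sex was not tested. App was not higher in APP/PS1, with mean CPM (counts scaled to the library total) of 1622 in WT and 1249 in APP/PS1. This is the mouse gene's row, which does not check the human transgene. The summed CPM of 14 microglial markers ranged from 888.1 to 1269 (WT), from 2434 to 3030 (APP/PS1) and from 1593 to 1986 (APP/PS1+N-AS), and none of the 14 was at 0 in any library. Markers of other brain cells were also present and differed between the groups. Summed oligodendrocyte markers reached 7156 CPM in WT (lowest 2472), 4777 in APP/PS1 (lowest 1980) and 4023 in APP/PS1+N-AS (lowest 2942), and Opalin, Cnp and Ermn, 3 of the 10, were called lower in APP/PS1 than in WT. The 6 choroid plexus and ependyma markers lay between 737.5 and 1234 CPM in APP/PS1, against 24.1 to 425.1 (WT) and 28.9 to 846.6 (APP/PS1+N-AS). Astrocyte markers reached 2745, 4020 and 3434 CPM in these 3 groups, from lowest values of 2323, 2529 and 2354, with Gfap called higher in APP/PS1 than in WT, and neuron markers reached 5337, 2574 and 3123, from 1670, 2164 and 2208. The part of these cells in the results was not tested. In such bulk samples, more cells of a type and more RNA per cell cannot be told apart.

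The promoters of the genes that the results turn on are shown first, because they hold the motifs that the replication and mitotic genes share or do not share. The 250 bases before the transcription start come from RefSeq on GRCm38.p6, written 5′ to 3′ on the gene's strand. Capitals mark 4 searched motifs on either strand, the E2F sites TTTCCCGC and TTTGGCGC, the CHR element TTTGAA and the CCAAT box CCAAT. Mcm3 and Top2a were the genes called between APP/PS1 and WT, and Mki67 is the standard marker of proliferation. Mcm6 and Cdk1 were picked from 9 genes for which the APP/PS1+N-AS libraries lay wholly below APP/PS1.
Mcm3, chr1:20820313-20820562, minus strand: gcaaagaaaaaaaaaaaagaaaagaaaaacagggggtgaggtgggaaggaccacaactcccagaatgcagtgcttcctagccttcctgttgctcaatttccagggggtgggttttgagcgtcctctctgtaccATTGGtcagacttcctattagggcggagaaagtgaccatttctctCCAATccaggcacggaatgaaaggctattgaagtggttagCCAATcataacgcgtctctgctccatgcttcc
Mcm6, chr1:128359706-128359955, minus strand: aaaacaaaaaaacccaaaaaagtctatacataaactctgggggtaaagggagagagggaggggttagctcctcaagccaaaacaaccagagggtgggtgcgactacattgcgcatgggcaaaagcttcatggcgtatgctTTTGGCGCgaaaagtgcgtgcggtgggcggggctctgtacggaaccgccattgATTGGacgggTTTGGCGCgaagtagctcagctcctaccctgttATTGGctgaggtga
Cdk1, chr10:69352913-69353162, minus strand: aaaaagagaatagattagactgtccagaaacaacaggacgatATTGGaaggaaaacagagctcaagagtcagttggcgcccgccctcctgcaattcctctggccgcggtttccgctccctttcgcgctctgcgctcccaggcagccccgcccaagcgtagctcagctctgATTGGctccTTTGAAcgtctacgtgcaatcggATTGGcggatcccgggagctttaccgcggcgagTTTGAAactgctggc
Top2a, chr11:99024190-99024439, minus strand: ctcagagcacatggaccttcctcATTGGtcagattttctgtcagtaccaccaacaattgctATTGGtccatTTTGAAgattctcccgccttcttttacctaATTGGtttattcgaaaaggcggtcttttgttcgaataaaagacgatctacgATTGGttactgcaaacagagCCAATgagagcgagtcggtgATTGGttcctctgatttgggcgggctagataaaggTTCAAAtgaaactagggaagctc
Mki67, chr7:135716380-135716629, minus strand: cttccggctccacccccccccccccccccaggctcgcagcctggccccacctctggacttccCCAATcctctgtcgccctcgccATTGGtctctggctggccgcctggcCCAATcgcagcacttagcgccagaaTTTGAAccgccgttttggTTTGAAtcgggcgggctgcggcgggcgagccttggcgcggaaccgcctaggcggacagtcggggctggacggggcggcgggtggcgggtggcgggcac

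Mcm6 held 2 E2F sites upstream of its start, whereas both E2F sites of Mcm3 lay in the 50 bases after its start, from base 20 and base 39. Top2a had 2 CHR elements and 6 CCAAT boxes upstream. Mki67 and Cdk1 each had 2 CHR elements and 3 CCAAT boxes. Over the window of 300 bases from 250 before to 50 after the start, an E2F site was found in 6 of the 32 listed members with a promoter (18.8%) and in 1.8% of 27025 genes. All 6 were licensing and replisome genes (Cdc6, Cdt1, Mcm3, Mcm5, Mcm6 and Mcm7). A CHR element was found in 13 members (40.6%) against 20.2% of all genes, and 11 of the 13 belonged to the mitotic and spindle groups. A CCAAT box was found in 24 members (75.0%) against 41.1% of all genes. E2f1, Ccne1, Tyms, Tk1, Birc5 and Nusap1 held none of the searched motifs in this window. Rrm1 and Uhrf1, whose APP/PS1+N-AS libraries also lay wholly below APP/PS1, held only CCAAT boxes. No motif contains another, and of 82 matches in these promoters only 2 overlapped, both CCAAT boxes in Uhrf1. A match gives the presence of these letters and not the binding of a factor. Aurkb, Ccna2, Ccne2, Gins2, Kif20a, Mcm4 and Tpx2 had no promoter to search.

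The level of each gene was compared per length, as mean CPM per kilobase of exon over the 10 libraries. Most of the 39 genes were low. The level was 134.4 for E2f1 and 74.7 for Tyms, while the third, Pcna, had 11.3 and the lowest, Aurkb, 0.228. Mcm4 had 5.03, Mcm3 3.60, Mcm7 3.54 and Mki67 2.11 CPM per kilobase. E2f1, a transcription factor that drives S-phase genes, and Tyms, the enzyme that makes thymidylate, thus stood far above the genes they are known to act with. No annotated gene overlapped either of them. The nearest gene to E2f1 was Necab3 at 517 bases. E2f1 and Tyms are kept in the counts below and left out of sums, which they would set.

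**Figure D1:**
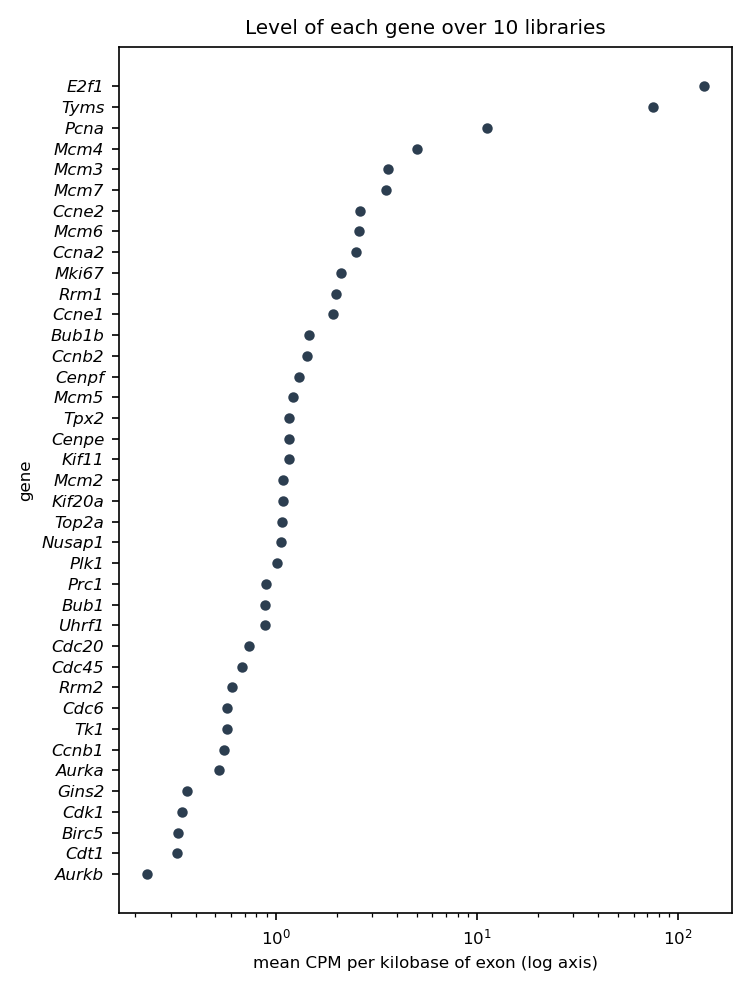
Mean level of each of the 39 genes over 10 libraries, in CPM per kilobase of exon on a log axis. E2f1 (134.4) and Tyms (74.7) lie apart from the other 37 genes, which lie between 0.228 and 11.3.

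The first comparison asked how the genes differed between APP/PS1 and WT microglia. Top2a, a topoisomerase that untangles DNA in S phase and mitosis, and Mcm3, a subunit of the replicative helicase, were higher in APP/PS1. These 2 of 39 genes (5.13%) passed an adjusted p of 0.05 in edgeR, and both were higher. Of all genes 3.47% passed, 2.67% higher and 0.796% lower. Mki67, Cdk1 and Birc5 had log2 fold changes above 1 that did not pass. In all, 31 of 39 genes had a log2 fold change above 0, against 41.2% of all genes, and the median was 0.30 against -0.07 over all genes.

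Top2a (chr11:98992943-99024189, GRCm38, minus strand) had 5.11, 3.53 and 3.71 CPM in the WT libraries, 12.6, 10.2, 26.0 and 10.5 in APP/PS1 and 9.22, 9.17 and 6.13 in APP/PS1+N-AS. Every APP/PS1 library was above every WT library, and APP/PS1 replicate 3 was well above the other APP/PS1 libraries. The means were 4.12 ± 0.865 (SD, n = 3) in WT and 14.8 ± 7.54 (SD, n = 4) in APP/PS1. The log2 fold change of Top2a was 1.87 ± 0.354 (SE) with an adjusted p of 0.0176 in edgeR. Without APP/PS1 replicate 3 it was 1.46 with an adjusted p of 0.013, and without WT replicate 2 it was 1.78 with an adjusted p of 0.069.

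Mcm3 (chr1:20802968-20820312, GRCm38, minus strand) had 9.27, 8.98 and 6.99 CPM in WT, 16.0, 15.9, 23.6 and 17.9 in APP/PS1 and 10.01, 13.3 and 13.2 in APP/PS1+N-AS. The 3 groups did not overlap for Mcm3, with APP/PS1+N-AS between the others. Its log2 fold change between APP/PS1 and WT was 1.13 ± 0.193 (SE) with an adjusted p of 0.0107 in edgeR. It passed in each fit without 1 library, with adjusted p from 0.0158 to 0.0351. With the replicate number as a block the adjusted p was 0.0523 for Mcm3 and 0.0504 for Top2a, so neither passed.

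**Figure D2:**
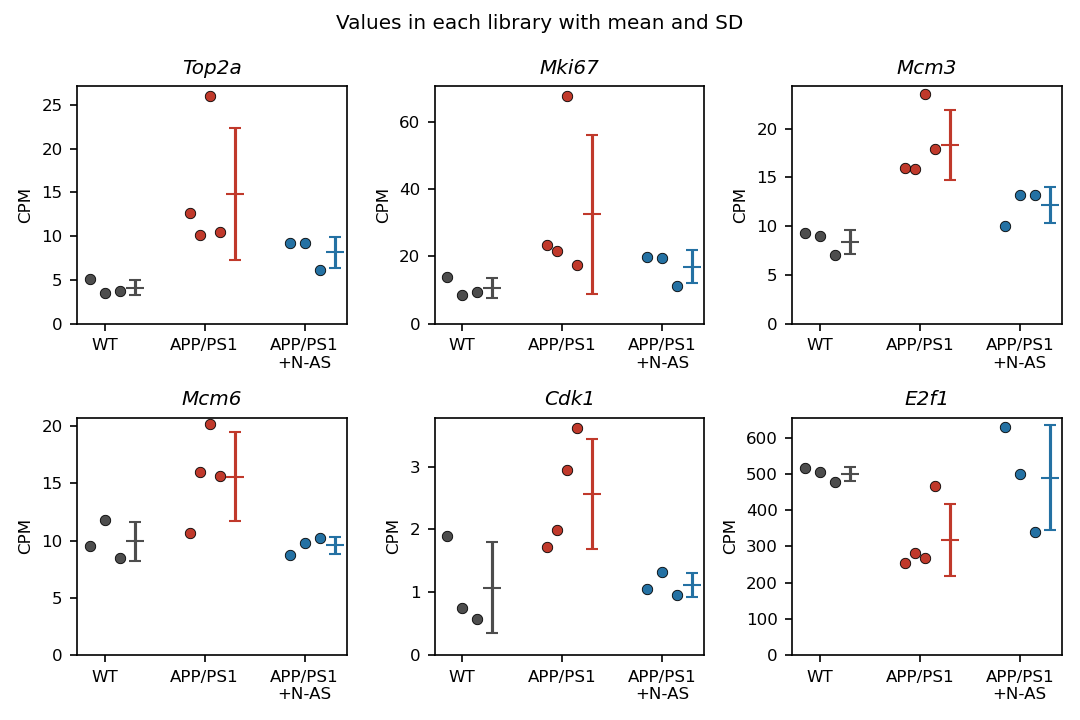
CPM of 6 genes in each library (points), with the mean and SD of each group beside them and axes starting at 0. For Top2a and Mcm3 all 4 APP/PS1 libraries lie above the WT libraries, Mki67 reaches 67.6 in APP/PS1 replicate 3, and E2f1 is the only one of the 6 whose APP/PS1 libraries lie below WT.

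The proliferation marker Mki67 had 13.9, 8.61 and 9.26 CPM in WT, 23.2, 21.5, 67.6 and 17.4 in APP/PS1 and 19.9, 19.6 and 11.2 in APP/PS1+N-AS. APP/PS1 and WT did not overlap, and the APP/PS1 mean of 32.4 ± 23.6 (SD, n = 4) was set largely by replicate 3. The log2 fold change was 1.63 ± 0.464 (SE) with an adjusted p of 0.0889 in edgeR, 0.00579 in DESeq2 and 0.127 in limma voom. Without APP/PS1 replicate 3 the log2 fold change was 0.99 with an adjusted p of 0.11.

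Groups that did not overlap were counted for each gene. APP/PS1 lay above WT for 4 of 39 genes (10.3%; Mcm3, Mki67, Pcna and Top2a), against 8.15% of all genes. It lay below WT for E2f1 and Bub1b (5.13%), against 6.73%. These shares were close to those over all genes. At an unadjusted p under 0.05 in edgeR, 9 genes were higher (23.1%, against 8.3% of all genes) and 2 were lower (5.13%, against 8.9%).

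The licensing and replisome group holds 11 genes, and all 11 had a log2 fold change above 0 with a median of 0.26. Only Mcm3 among the 6 MCM helicase genes passed the test. Mcm6 had 9.51, 11.8 and 8.49 CPM in WT, 10.6, 16.0, 20.2 and 15.6 in APP/PS1 and 8.76, 9.75 and 10.2 in APP/PS1+N-AS. Mcm6 had a log2 fold change of 0.65 ± 0.21 (SE) with an adjusted p of 0.132 in edgeR, and APP/PS1 replicate 1 lay within the WT range. Mcm2 had 7.49, 8.36 and 5.26 CPM in WT, 7.25, 6.61, 11 and 7.62 in APP/PS1 and 8.04, 8.59 and 4.88 in APP/PS1+N-AS, and these ranges overlapped throughout. The log2 fold changes of Mcm4, Mcm5 and Mcm7 were 0.14, 0.28 and 0.08. The 6 subunits form 1 ring in equal copies, and their differences from WT ran from 0.08 to 1.13 on the log2 scale.

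Pcna, the sliding clamp of the replication fork, had 22.0, 27.1 and 23.5 CPM in WT, 31.5, 27.7, 35.0 and 29.0 in APP/PS1 and 25.2, 28.8 and 20.2 in APP/PS1+N-AS. APP/PS1 lay above WT in every library by a small margin, with a log2 fold change of 0.35 and an adjusted p of 0.264 in edgeR. Cdt1, which loads the helicase at origins together with Cdc6, had 1.66, 0.557 and 0.820 CPM in WT, 0.777, 1.57, 1.37 and 1.90 in APP/PS1 and 0.395, 0.530 and 0.591 in APP/PS1+N-AS. Its counts were 6 to 40 reads per library, and WT and APP/PS1 overlapped. Cdc6, Cdc45 and Gins2 had log2 fold changes of 0.17, 0.26 and 0.04.

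The S-phase control group of 5 genes had a median of 0.05 and no call. E2f1 had 515, 506 and 478 CPM in WT, 254, 281, 268 and 467 in APP/PS1 and 630, 499.5 and 340 in APP/PS1+N-AS. All 4 APP/PS1 libraries were below WT, with 3 of them far below and replicate 4 just below. The log2 fold change of E2f1 was -0.65 ± 0.256 (SE) with an adjusted p of 0.217 in edgeR, opposite in sign to Mcm3 and Mcm6. Ccne1, a cyclin of the entry into S phase, had 2.97, 2.79 and 9.45 CPM in WT, 4.75, 5.04, 5.12 and 4.71 in APP/PS1 and 6.92, 3.87 and 5.62 in APP/PS1+N-AS. WT replicate 3 decided its direction, with a log2 fold change of -0.08 with that library and 0.78 without it. The other cyclins of this group, Ccne2 and Ccna2, had 0.05 and 0.30, and Uhrf1, which keeps DNA methylation through replication, had 0.51.

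Of the 4 genes of nucleotide supply, none passed. Tyms had 1086, 351 and 442 CPM in WT, 283, 315, 482 and 431 in APP/PS1 and 350, 348 and 461 in APP/PS1+N-AS. Apart from WT replicate 1, these values lay between 283 and 482 in every group. Tyms had a log2 fold change of -0.73 with an adjusted p of 0.331 in edgeR, and of -0.07 without WT replicate 1. Tk1, thymidine kinase, had 0.91 with an adjusted p of 0.265, and the ribonucleotide reductase subunits Rrm1 and Rrm2 had 0.24 and 0.42.

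The 10 mitotic kinase, cyclin and checkpoint genes split, with 6 above 0 and 4 below and a median of 0.38. Cdk1, the kinase that drives entry into mitosis, had 1.90, 0.743 and 0.579 CPM in WT, 1.73, 1.98, 2.94 and 3.62 in APP/PS1 and 1.05, 1.33 and 0.961 in APP/PS1+N-AS. WT replicate 1 lay within the APP/PS1 range. Cdk1 had a log2 fold change of 1.33 ± 0.472 (SE) with an adjusted p of 0.172 in edgeR and 0.0427 in limma voom. Birc5, or survivin, part of the chromosomal passenger complex, had 0.594, 0.186 and 0.723 CPM in WT, 1.64, 1.65, 2.46 and 0.714 in APP/PS1 and 0.988, 1.11 and 0.961 in APP/PS1+N-AS. These came from 3 to 36 reads per library, with a log2 fold change of 1.67 ± 0.56 (SE) and an adjusted p of 0.151 in edgeR.

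Bub1b, a kinase of the spindle checkpoint, differed in the other direction. It had 10.1, 6.69 and 7.28 CPM in WT, 5.01, 4.79, 5.06 and 6.14 in APP/PS1 and 6.79, 5.51 and 5.10 in APP/PS1+N-AS. Every APP/PS1 library was below every WT library, with a log2 fold change of -0.60 ± 0.197 (SE) and an adjusted p of 0.142 in edgeR. The related kinase Bub1 had -0.39, the mitotic cyclins Ccnb1 and Ccnb2 had -0.35 and 0.38, and the anaphase activator Cdc20 had -0.17. Ccnb1 ranged within WT from 0.248 CPM in replicate 2 to 8.56 in replicate 1. The kinases Plk1, Aurka and Aurkb had 0.39, 0.67 and 0.75 with standard errors of 0.401, 0.687 and 0.815.

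The spindle and chromosome structure group of 9 genes had 8 above 0 and a median of 0.43. Top2a and Mki67 were the largest. The spindle motor Kif11 had 0.53, the centromere motor Cenpe 0.38, the cytokinesis factors Prc1 and Kif20a 0.48 and 0.22, and the spindle assembly factors Tpx2 and Nusap1 0.43 and 0.30. Their adjusted p lay between 0.29 and 0.746. Cenpf, a kinetochore protein, had -0.08.

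**Figure D3:**
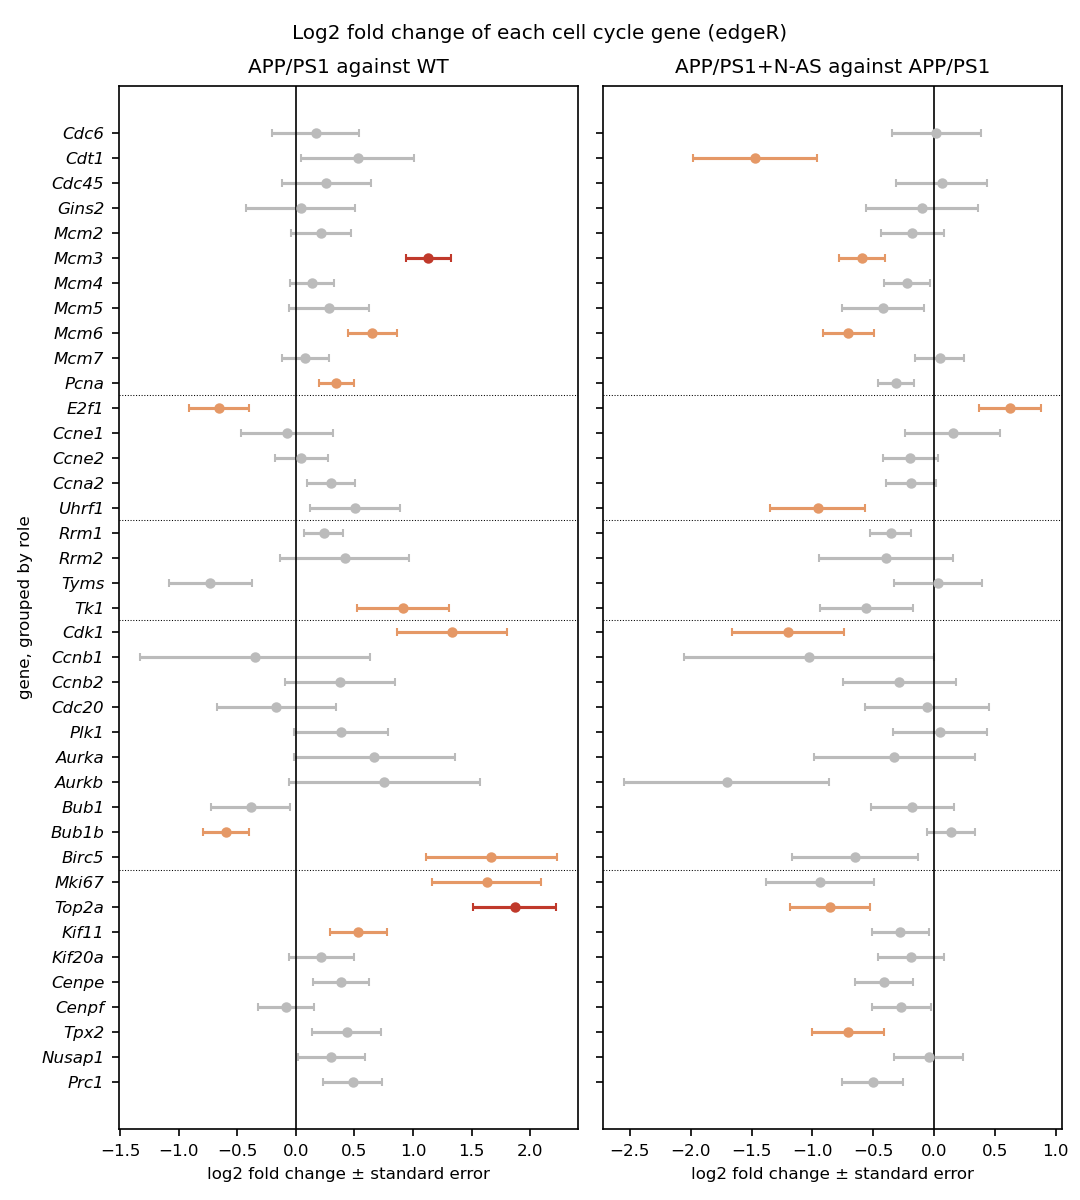
Log2 fold change ± standard error of each of the 39 genes, by role, for APP/PS1 against WT (left) and APP/PS1+N-AS against APP/PS1 (right). Red marks an adjusted p under 0.05 in edgeR, orange an unadjusted p under 0.05 only and grey the rest; most genes lie right of 0 on the left (31 of 39) and left of 0 on the right (31 of 39), and both panels share the APP/PS1 libraries.

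One library carried much of the pattern. APP/PS1 replicate 3 was the highest of the 10 libraries for 25 of the 39 genes (64.1%), against 9.96% of all genes. The summed CPM of the 37 genes without E2f1 and Tyms was 281.6, 227.9 and 219.3 in WT, 266.8, 282.1, 446.7 and 293.8 in APP/PS1 and 244.4, 255.3 and 239.7 in APP/PS1+N-AS. Apart from replicate 3, the APP/PS1 sums lay close to WT replicate 1. Without APP/PS1 replicate 3 the median log2 fold change over the 39 genes was 0.16 and 27 were above 0, and Mcm3 and Top2a still passed. Without WT replicate 1 the median was 0.50 and 35 were above 0.

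The same library stood apart in other markers. The 7 neutrophil and monocyte markers found, of 8 listed, summed to 72.6 CPM in APP/PS1 replicate 3 and to 15.3 to 19.9 CPM in the other APP/PS1 libraries, 7.86 to 21.0 in WT and 14.2 to 24.1 in APP/PS1+N-AS. S100a9 had 38.1 CPM and S100a8 12.4 CPM there, against 1.33 to 8.48 and 0.238 to 3.50 elsewhere. Retnlg, Mmp8 and Plac8 were also highest in this library. Ly6c2 with 7.72 CPM and Ccr2 with 2.73 CPM were not, lying within 3.28 to 11.8 and 0.922 to 3.57 elsewhere. Of the 7 only Plac8 was at 0 in any library. Its microglial markers were also the highest, at 3030 CPM, as were its astrocyte markers, at 4020 CPM. The part of these cells in the values of replicate 3 was not tested.

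**Figure D4:**
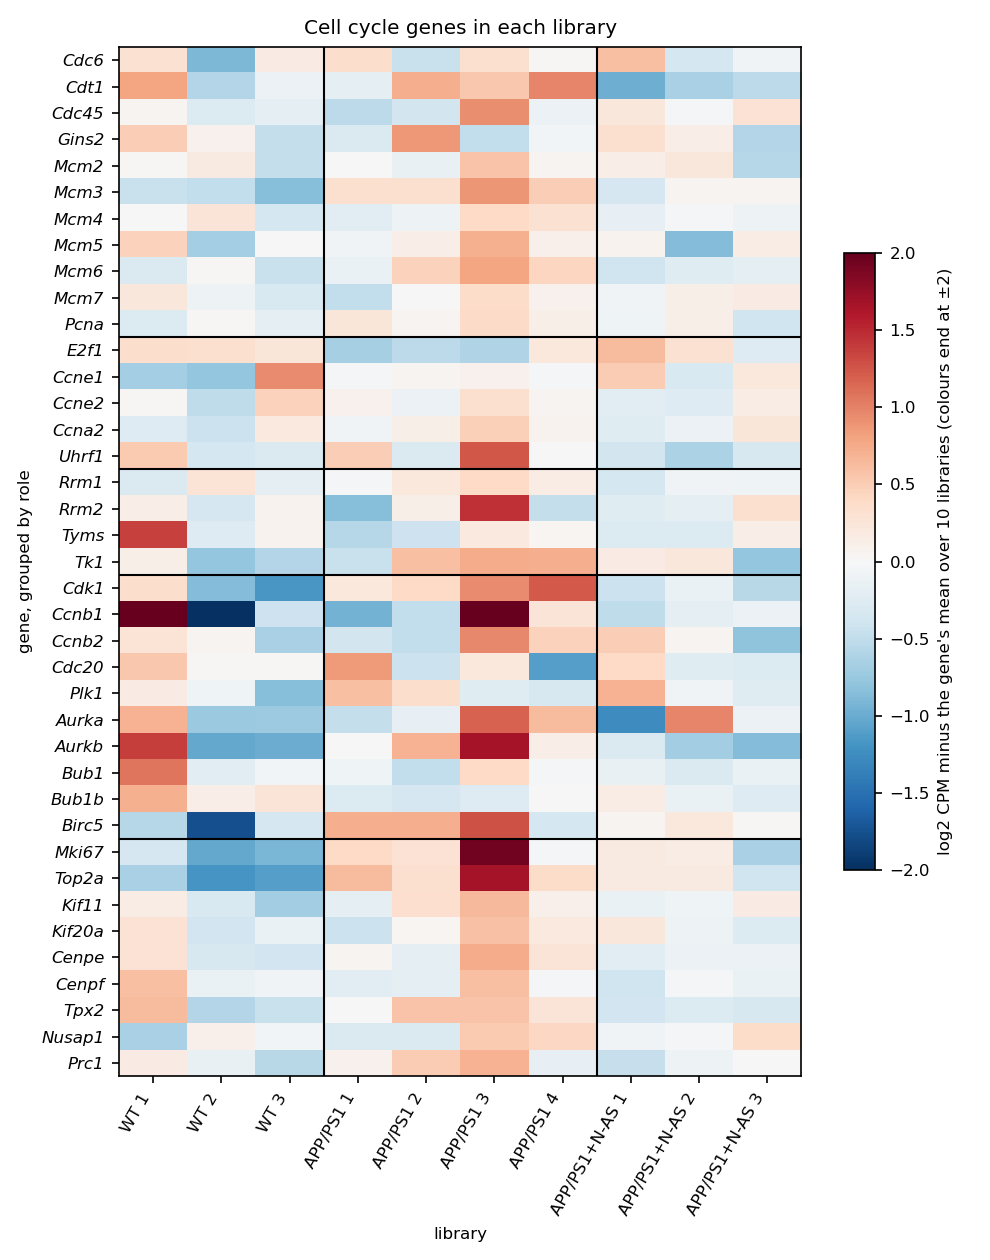
Log2 CPM of the 39 genes (rows, by role) in the 10 libraries (columns, by group) minus each gene's mean over the libraries, with colours ending at ±2. APP/PS1 replicate 3 is the highest library for 25 of 39 genes, and WT replicate 1 is higher than the other WT libraries for many mitotic genes.

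Microglial markers themselves differed between the groups, with 10 of 14 called higher in APP/PS1 and a mean difference of 1.10 on the log2 CPM scale. Set against that mean, the difference was 0.62 for Top2a, 0.30 for Mki67, -0.001 for Mcm3 and -0.76 for the average of the 39 genes. The increase of Mcm3 thus equalled that of the microglial markers, and the average of the 39 genes was smaller. Within library numbers 1 to 6 the difference between APP/PS1 and WT was 0.79 for Mcm3, 1.39 for Top2a, 1.02 for Mki67 and 0.07 for the average of the 39 genes. Within library numbers 7 to 10, where WT replicate 3 was the only WT library, it was 1.54, 2.12, 1.88 and 0.70. The labels do not say whether these numbers mark a batch.

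The second comparison asked how the genes differed between APP/PS1 microglia with and without N-AS injection. No gene passed, neither among the 39 nor among all 18727 genes (0%) in edgeR, where 1653 genes had an unadjusted p under 0.05. DESeq2 called 79 genes and limma voom 0, none of them among the 39. For Cdt1, Cdk1 and Birc5 DESeq2 gave no adjusted p, so they could not be called there. Of the 39 genes, 7 had a lower value at an unadjusted p under 0.05 (17.9%, against 4.05% of all genes) and 1 a higher value, E2f1 (2.56%, against 4.78%). The 7 were Cdk1, Cdt1, Mcm3, Mcm6, Top2a, Tpx2 and Uhrf1. In all, 8 of 39 genes had a log2 fold change above 0, against 48.6% of all genes, and the median was -0.28 against -0.01.

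APP/PS1+N-AS lay wholly below APP/PS1 for 9 of 39 genes (23.1%), against 6.46% of all genes, and wholly above for 0, against 6.26%. The 9 were Aurkb, Cdk1, Cdt1, Mcm3, Mcm6, Rrm1, Top2a, Tpx2 and Uhrf1. They cover licensing (Cdt1), the helicase (Mcm3 and Mcm6), nucleotide supply (Rrm1) and mitosis (Cdk1, Aurkb, Tpx2 and Top2a). Aurkb had only 6, 5 and 3 reads in APP/PS1+N-AS and 6, 11, 28 and 12 in APP/PS1, so its separation is uncertain. Both comparisons use the same 4 APP/PS1 libraries and are not independent of each other.

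Mcm6 had the lowest unadjusted p of the 39, 0.00635, with a log2 fold change of -0.71 ± 0.209 (SE) and an adjusted p of 0.494 in edgeR. Its APP/PS1+N-AS mean was 9.57 ± 0.734 CPM (SD, n = 3) against 9.92 ± 1.68 in WT (SD, n = 3). Mcm3 had -0.59 ± 0.187 (SE) with an unadjusted p of 0.00915, and its APP/PS1+N-AS libraries stayed above WT. Cdt1 had -1.47 ± 0.507 (SE) with an unadjusted p of 0.0146. Cdk1 had -1.20 with an unadjusted p of 0.0242 and Top2a -0.86 with 0.0258, both in edgeR. Mki67 had -0.94 with an unadjusted p of 0.0596. Their adjusted p lay between 0.494 and 0.584.

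Among the 39 genes only E2f1 was higher at an unadjusted p under 0.05. It had a log2 fold change of 0.62 ± 0.256 (SE), an unadjusted p of 0.0335 and an adjusted p of 0.531 in edgeR. Its APP/PS1+N-AS libraries overlapped both other groups. For library numbers 1 to 6 alone the difference of E2f1 was 1.07 on the log2 CPM scale. It was -0.06 for numbers 7 to 10, where APP/PS1+N-AS replicate 3 was the only N-AS library. Without APP/PS1+N-AS replicate 1 the log2 fold change of E2f1 was 0.40. Bub1b, Ccne1 and Tyms had 0.14, 0.15 and 0.03, and Birc5, Pcna and Mcm2 had -0.65, -0.31 and -0.18. None of these passed.

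By role, the median log2 fold change with N-AS was -0.22 for licensing and replisome genes, -0.19 for S-phase control, -0.37 for nucleotide supply, -0.31 for mitotic kinases, cyclins and checkpoint and -0.41 for spindle and chromosome structure. All 9 spindle and chromosome structure genes were below 0. The average log2 CPM of the 39 genes was 2.40 ± 0.358 in WT, 2.75 ± 0.321 in APP/PS1 and 2.44 ± 0.052 in APP/PS1+N-AS (SD over libraries). The APP/PS1+N-AS libraries spanned 0.0985 on this scale, WT 0.667 and APP/PS1 0.732. The APP/PS1 average differed by 0.35 from WT, and APP/PS1+N-AS by -0.31 from APP/PS1, less than the spans of WT and APP/PS1.

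**Figure D5:**
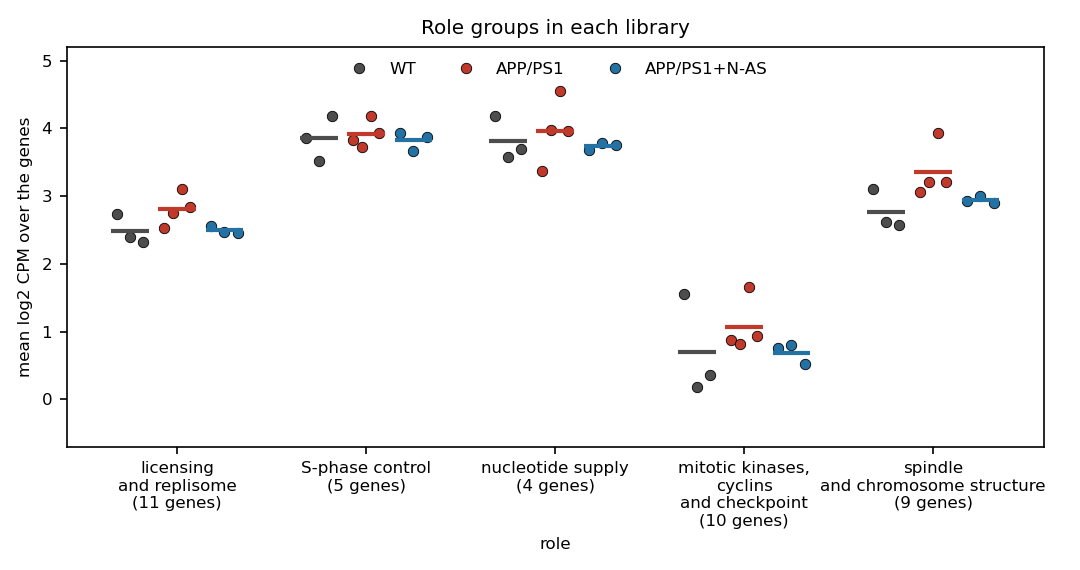
Mean log2 CPM over the genes of each role in each library (points), with the group mean as a line. APP/PS1 replicate 3 is the highest library in 4 of the 5 roles, and the APP/PS1+N-AS libraries lie close together.

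Here too 1 library set much of the size. Without APP/PS1 replicate 3 the median over the 39 genes was -0.11 and 14 were above 0. The log2 fold change was then -0.29 for Mki67 and -0.44 for Top2a, but -0.45 for Mcm3, -0.56 for Mcm6, -1.14 for Cdk1 and -1.49 for Cdt1. With all libraries Mki67 had -0.94 and Top2a -0.86, so leaving this library out made both differences smaller. The values of Mcm3, Mcm6, Cdk1 and Cdt1 moved by less. Within library numbers 1 to 6 the average of the 39 genes differed by -0.08 and within 7 to 10 by -0.58. The latter value sets APP/PS1+N-AS replicate 3, the only N-AS library there, against APP/PS1 replicates 3 and 4. Microglial markers were lower with N-AS by a mean of -0.47, and relative to them the average of the 39 genes was 0.15 higher. That average includes E2f1 with 1.09 and Tyms with 0.52, and Pcna and Mcm2 had 0.14 and 0.27. Relative to the markers, Cdt1 had -0.76, Cdk1 -0.61, Top2a -0.29, Mki67 -0.29, Mcm6 -0.20 and Mcm3 -0.11.

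APP/PS1+N-AS was last set against WT. None of the 39 genes passed in edgeR, against 0.187% of all genes, or 35 genes (0.176% higher and 0.0107% lower), and DESeq2 and limma voom also called none of the 39. Top2a and Mcm3 had an unadjusted p under 0.05 (5.13%, against 3.64% of all genes called higher), with log2 fold changes of 1.01 and 0.54, and none was lower at that level, against 3.09%. The libraries of APP/PS1+N-AS lay above WT for Birc5, Mcm3 and Top2a (7.69%, against 4.9%) and below WT for none (against 3.91%). The median over the 39 genes was 0.02 and 20 were above 0 (51.3%, against 43.8%). Bub1b, the gene furthest below WT by its unadjusted p of 0.0531, had -0.46.

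Other genes of the cycle were taken from lists that cover steps the 39 do not. Ccnd1, the D-type cyclin that takes cells out of quiescence, was called higher in APP/PS1 than in WT, with a log2 fold change of 1.19 and an adjusted p of 0.00617 in edgeR. It had 17.8 ± 2.29 CPM in WT, 40.7 ± 7.08 in APP/PS1 and 23.8 ± 4.75 in APP/PS1+N-AS (SD). The mean difference of the microglial markers, 1.10 on the log2 CPM scale, was close to that of Ccnd1 and of Btg1 and Dbf4 below. Its part in these calls was not tested. Ccnd1 was the 1 call among 9 G1 cyclins, CDKs and CDK activators (against 2.67% of all genes called higher), and nothing is read from 1 call for the list. Ccnd2 and its partner kinase Cdk6 had 0.60 and 0.85 with adjusted p of 0.106 and 0.112. With N-AS, the log2 fold change was -0.77 for Ccnd1 with an adjusted p of 0.478, -0.55 for Ccnd2 and 0.67 for the phosphatase Cdc25b. DESeq2 called Ccnd1 lower with N-AS.

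Genes that hold the cycle back were examined next. Btg1, an antiproliferative factor, was called higher in APP/PS1 (log2 fold change 1.07, adjusted p 0.00782 in edgeR), the 1 call among 20 tested CDK inhibitors and quiescence genes (against 2.67% of all genes called higher). The p53 target Ccng1 and the CDK inhibitor Cdkn1c had 0.65 and 0.69 with adjusted p of 0.0522 and 0.102. With N-AS, Btg1 had -0.55, Ccng1 -0.37 and Lin37, a subunit of the DREAM repressor complex, 0.42, and none passed.

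Among 45 other replication factors tested, Dbf4, the activator of the origin-firing kinase Cdc7, was the 1 call, with a log2 fold change of 1.17 and an adjusted p of 0.0408 in edgeR. Of all genes, 2.67% were called higher, so 1 call of 45 is near the background. The call of Dbf4 was lost in each of the 7 fits without 1 library, where its log2 fold change lay between 0.99 and 1.28. The fork protector Tipin had 0.67, and the median of this list was -0.02. With N-AS, Topbp1, a replication checkpoint scaffold, had -0.33 and Dbf4 -0.64, and neither passed. Of 55 other mitosis genes tested none passed, 41 were above 0 and the median was 0.20. Spc25, a kinetochore subunit, and Ckap2l, a spindle protein, had 1.52 and 1.37 with adjusted p of 0.0692 and 0.0697, and Anln, a cytokinesis scaffold, had -0.85. Of these mitosis genes DESeq2 called Spc25, Ckap2l and Anln. With N-AS, Casc5, a kinetochore scaffold, had -1.33, Depdc1b -1.997 and Anln 0.64, and none passed.

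Replication-dependent histones, which package new DNA in S phase, had the highest median of these lists. The list was taken by gene symbol alone, and whether each gene is used in S phase was not checked. Of 65 genes, 64 had a log2 fold change above 0 between APP/PS1 and WT, with a median of 0.86, and 8 were called higher, against 2.67% of all genes. The mean difference of the microglial markers, 1.10 on the log2 CPM scale, was larger than this median. Its part in the histone values was not tested. The linker histone Hist1h1d had 1.19 with an adjusted p of 0.0179, Hist1h1e 0.66 with 0.0351 and Hist1h1c 0.71 with 0.0369, all in edgeR. The others were Hist1h2af, Hist1h2ah, Hist1h2ai, Hist2h3c1 and Hist2h3c2. The last pair had the same counts in every library, and the gene copies of this family are near identical, so how reads were divided among them is uncertain. The calls were not stable, with 0 to 6 called in fits without 1 library, 0 without WT replicate 1 or WT replicate 2, 1 without APP/PS1 replicate 4, 3 without APP/PS1 replicate 2 or 3, 5 without APP/PS1 replicate 1 and 0 with the replicate number as a block. DESeq2 called 16 and limma voom 3. The histones summed to 627.1, 649.4 and 723.7 CPM in WT, 891.8, 876.6, 1546 and 1036 in APP/PS1 and 1291, 952.5 and 780.3 in APP/PS1+N-AS. Each APP/PS1 library was above each WT library, and replicate 3 was again the highest.

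Reads of some of the 39 genes may include reads of a neighbour. In GENCODE M21, 18 of the 39 overlap another annotated gene, among them Cdt1 and Gins2 (with Gm20388), Mcm7 (with Cops6 and Ap4m1), Cdc45 (with Ufd1), Ccna2 (with Exosc9), Tk1 (with Afmid) and Kif20a (with Cdc23). Whether the counting used strand is not stated, so the values of these genes are less certain. Top2a overlaps a pair of annotated snoRNA genes and Mki67 overlaps Gm45240. Mcm3, Mcm6, Cdk1, E2f1, Tyms, Pcna and Birc5 overlap none.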

How the data were processed

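RNA from 10 libraries of cortical microglia was depleted of ribosomal RNA, prepared as stranded libraries and sequenced as paired reads, and reads were aligned with TopHat. The values deposited by the authors are raw read counts per gene, with no normalization. The submitters' processing notes name the build mm10 and the tool edgeR, and the TopHat version, the gene annotation and the counter's strand setting are not given in the sources used here. Groups and replicate numbers came from the sample labels. No deposited column of per-sample values was left unused. No pair of libraries in a group agreed within sampling noise, with a chi-square per degree of freedom of 12.2 to 126 between libraries of a group. Each library pools a pair of mice, and nothing states further how replicates were separated, so p-values measure the spread between these libraries.

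Counts of lines with the same symbol were summed, giving 24421 symbols from 24481 lines. Genes were filtered with filterByExpr, scaled by TMM and tested with edgeR 4.0.16 in R 4.3.3 (glmQLFit and glmQLFTest, 1 model of 3 groups, no covariate). Benjamini-Hochberg adjustment ran over 18727 genes with a threshold of 0.05, and an adjusted p is from edgeR unless another tool is named. The biological coefficient of variation was 27.4%. CPM used TMM-scaled totals, with a prior count of 2 on the log2 scale. DESeq2 1.42.0 and voom in limma 3.58.1 were alternatives, with other scalings, filters, covariates and single libraries left out. The procedure was tested on simulated counts. Reads were amplified without molecular identifiers, so genes with few reads are imprecise beyond counting error.

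The labels number the libraries within each group. Same-numbered APP/PS1 and APP/PS1+N-AS libraries deviated together from their group means (r of 0.142 to 0.309 in 3 pairs). The mean r was 0.243 for these pairs and -0.0823 for differently numbered libraries of the 2 groups. Some differently numbered libraries also deviated together. The r was 0.32 for APP/PS1 replicate 4 with APP/PS1+N-AS replicate 3, and 0.197 for APP/PS1 replicate 2 with APP/PS1+N-AS replicate 1. The replicate number therefore does not establish a pairing. A fit with that number as a block changed no call for the 39 genes between these groups.

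Exon lengths and overlaps came from GENCODE M21 on GRCm38, matched by symbol. Casc5 stands for Knl1. Promoters came from RefSeq on GRCm38.p6, matched by symbol for 32 of 39 genes. The 39 genes, their roles and the lists of other cycle and marker genes were chosen with earlier results of these data known, so their counts are descriptions. Values in every library are given for Mki67, Top2a, Cdk1, Pcna and Mcm2, for each gene with an adjusted p under 0.05 and for the 3 genes with the lowest unadjusted p in each direction and comparison. Of each other list, the called genes and the 3 with the lowest unadjusted p in a comparison are named. Some genes that this rule or the checks would name are not reported here.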

Additional observations from a re-analysis of the deposited data

Results flagged for a closer look

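In a group of 4 libraries, a library was singled out when its gap to the nearest other library, divided by the group's range, exceeded Dixon's 95% critical value for 4 samples. The rule was applied on the log2 CPM scale to APP/PS1, for the 39 genes and the 11 called genes of the other lists. Chance flags about 1 in 20 groups. The ratio was 0.837 for E2f1, where APP/PS1 replicate 4 had 467 CPM against 254 to 281 in the other 3 libraries. The ratio was 0.884 for Tk1, where APP/PS1 replicate 1 had 1.99 CPM against 4.21 to 4.65 in the others. Hist2h3c1 and Hist2h3c2, whose counts were the same, had a ratio of 0.843, with 14.6 CPM in APP/PS1 replicate 3 against 6.66 to 8.11 in the others.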

How the results depend on the processing

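Between APP/PS1 and WT, 2 of the 39 genes were called, and 1 to 3 in fits without 1 library (only Mcm3 without WT replicate 2, and Mcm6 added without APP/PS1 replicate 1). An unadjusted p under 0.05 gave 11. The replicate number as a block gave 0 of the 39 and 326 of all genes against 649. Same-numbered WT and APP/PS1 libraries had r of -0.485 to 0.441 (mean -0.0179, against 0.00579 for other numbers). For WT and APP/PS1+N-AS libraries r was -0.136 to 0.348 (mean 0.151, against -0.0753 for other numbers). Whether the numbers mark a pairing cannot be settled from so few libraries. DESeq2 called 1362 genes and limma voom 632, each with 3 of the 39. These were Mcm3, Mki67 and Top2a in DESeq2 and Cdk1, Mcm3 and Top2a in limma voom. For Cdt1 and Birc5 DESeq2 gave no adjusted p in this comparison, so they could not be called there. With N-AS the count was 0 against APP/PS1 in every fit, and 0 against WT, and an unadjusted p gave 8 and 2. The block changed no other call among the 39. The median over the 39 genes moved by less than 0.286, the SD between libraries, in each fit. Signs turned for genes with values near 0, and the cause was not tested. For APP/PS1 against WT, Ccne1 went to 0.11 with voom and 0.11 with the block, and from -0.38 to 0.78 without 1 library (0.78 without WT replicate 3). For N-AS against APP/PS1, Tyms went to -0.018 with total counts only, and without 1 library ranged from -0.10 to 0.17, Ccne1 from -0.051 to 0.35 and Mcm2 from -0.33 to 0.042. For N-AS against WT, E2f1 went to 0.0016 with no filter, and without 1 library ranged from -0.25 to 0.21, Pcna from -0.079 to 0.18, Ccne1 from -0.22 to 0.93, Mcm6 from -0.16 to 0.10, Cdk1 from -0.18 to 0.76 and Mcm2 from -0.14 to 0.27. Of 644 values of the named members under alternatives, 613 kept direction and side of the threshold. Alternatives for the other lists were chosen after seeing the data. At 10 counts in every library 33 of the 39 genes were left, which is what depth limits.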

Other observations

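A few histone genes were high in 1 APP/PS1+N-AS library alone. Hist1h3a had 29.1 CPM in replicate 1 and 2.92 and 2.22 in the other 2, against 1.80 to 1.93 in WT and 2.48 to 3.71 in APP/PS1. Hist1h3c had 15.3 CPM in that library, and Hist1h2aa had 11.1, a gene that lay between 0.0826 and 0.665 CPM in every other library. With N-AS against APP/PS1, none of the 3 passed an adjusted p of 0.05 in edgeR.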
